A study of Mus musculus with 12 samples.

Results

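The MCM helicase and G1-S genes described here are 10 mouse genes taken by symbol: Mcm2, Mcm3, Mcm4, Mcm5, Mcm6, Mcm7, Pcna, Cdc6, Cdt1 and Ccnd1. All 10 were found among the 36144 gene symbols of the deposited table of TPM (a gene's share of a library's transcripts after scaling for transcript length, summing to 1000000 over each library). They were compared across 4 groups of primary mouse hepatocytes, each with 3 poly-A RNA-seq libraries. FDMn cells were kept for 16 h in serum-free medium with 6 µM manganese chloride and then received 10 µM forskolin and 1 µM dexamethasone for 5 h. FDI cells were kept without serum for the same 16 h, received insulin for 1 h, and then the same forskolin and dexamethasone; the group's label gives 100 nM insulin, while the protocol shared by all samples names 1 or 100 nM. FD cells received forskolin and dexamethasone alone, and Mock cells are labelled with no agent. Forskolin activates adenylate cyclase and so raises cAMP, and dexamethasone is a synthetic glucocorticoid. All cells were freshly isolated by collagenase digestion from a wild-type mouse (C57/Bl6J), plated, and cultured without serum in every group. The labels name a single mouse and do not say whether the libraries of a group are separate cultures, so the p-values measure only the spread between these libraries, which may be technical. No group had manganese or insulin without forskolin and dexamethasone, and manganese was present for 16 h against 1 h of insulin pretreatment, so the agent and the length of exposure cannot be told apart.

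Eukaryotic cells prepare their DNA for copying in G1, when the origin recognition complex, Cdc6 and Cdt1 load a ring of the Mcm2 to Mcm7 proteins onto each origin. In S phase the loaded ring becomes the helicase that unwinds the DNA, and Pcna, a sliding clamp, holds the polymerases on the template. Cyclin D1, the product of Ccnd1, partners Cdk4 and Cdk6, which phosphorylate the retinoblastoma family and so release E2F factors, and E2F factors are textbook activators of Mcm, Cdc6, Cdt1 and Pcna transcription. Hepatocytes of the adult liver are mostly quiescent and can re-enter the cycle after loss of liver mass.

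The promoters are shown because several of the genes below moved together. RefSeq (GRCm38.p6) gave windows of 250 bases before to 50 bases after the start for 8 of the 10 genes, and Mcm4 and Ccnd1 had no entry. An E2F-type motif was searched on both strands as TTTCCCGC, TTTGGCGC, TTTCGCGC or TTTGCCGC, with overlapping matches joined. It was found for 6 of these 8 genes, Mcm3, Mcm5, Mcm6, Mcm7, Cdt1 and Cdc6. The 8 genes have 9 windows, as Mcm7 has another window, which held no match. Among all genes with a window, 704 of 27025 had the motif, and 2.26% of the 32851 promoter windows of the same length did. No such letters were found in the windows of Mcm2 and Pcna. The palindromic cAMP response element, TGACGTCA, was found in Mcm5 only, 99 to 92 bases before its start, and in 1.79% of all windows; it does not overlap the E2F-type match. The sequences are the 250 bases before the start, 5′ to 3′ on the gene's strand, for Mcm5 (chr8:75109259-75109508, plus strand) and Mcm6 (chr1:128359706-128359955, minus strand), the subunits with the largest change under manganese and under forskolin and dexamethasone, and for Mcm2 (chr6:88898781-88899030, minus strand), which did not pass the test under the second. Capitals mark E2F-type matches, and a match is a description of letters, not a site of binding.
Mcm5: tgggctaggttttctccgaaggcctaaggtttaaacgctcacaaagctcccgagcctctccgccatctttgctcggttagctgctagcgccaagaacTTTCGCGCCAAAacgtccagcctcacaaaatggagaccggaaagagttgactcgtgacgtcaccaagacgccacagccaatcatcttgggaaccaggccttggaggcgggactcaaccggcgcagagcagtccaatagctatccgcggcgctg
Mcm6: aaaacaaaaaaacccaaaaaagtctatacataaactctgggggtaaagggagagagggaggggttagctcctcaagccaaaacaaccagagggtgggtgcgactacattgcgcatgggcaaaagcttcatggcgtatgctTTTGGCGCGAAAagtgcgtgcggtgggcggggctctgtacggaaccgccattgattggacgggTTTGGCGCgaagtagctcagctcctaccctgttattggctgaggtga
Mcm2: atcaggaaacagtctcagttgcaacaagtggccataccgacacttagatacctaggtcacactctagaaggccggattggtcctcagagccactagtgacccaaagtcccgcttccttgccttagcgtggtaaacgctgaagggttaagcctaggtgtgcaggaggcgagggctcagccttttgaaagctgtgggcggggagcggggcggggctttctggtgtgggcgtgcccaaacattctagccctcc

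Before the members' values, some facts of the whole data set bear on them. The number of reads behind a value is unknown, and 10900 to 11161 genes reached 1 TPM per library. The cells carried hepatocyte RNA throughout, with 9 hepatocyte markers, Alb, Ttr and Apoa1 among them, summing to between 31500 and 42050 TPM in every library. FD replicates 1 and 2 stood apart from the other FD library on the second principal component, at 22.3 and 29.0 against 7.98. Results that rest on FD are therefore also given without that pair where a call ended. Those fits leave FD with 1 library, so a call can also end there because replicates are lost. FD cells had a median change over all 11544 tested genes of -0.15 on the log2(TPM + 1) scale against Mock cells, and of -0.005 after median-of-ratios scaling. For Mcm6 in FD cells and Mcm5, Mcm4 and Mcm2 in FDMn cells, the change against Mock is also given relative to the median of its comparison. The other changes against Mock are not shifted in this way. That scaling moved the split of calls in FD against Mock to 2054 higher and 1982 lower genes, against 1296 and 3447 on TPM. It gave 2129 higher and 2018 lower in FDMn against Mock, 2161 and 1995 in FDI against Mock, 847 and 696 in FDI against FD, and 820 and 1005 in FDMn against FDI; the share of calls that were lower became 48.7%, 48.0%, 45.1% and 55.1%, against 71.8%, 66.3%, 30.0% and 67.7% on TPM. In bulk RNA, fewer cells expressing a gene and less of its RNA per cell cannot be told apart.

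Pcna was the most abundant of the 10 genes, at 51.8 TPM over the 12 libraries, which is at percentile 80.2 of the tested genes. The helicase subunits ranged from 6.78 TPM for Mcm4 to 22.6 TPM for Mcm6. Cdt1 averaged 6.00 TPM and Ccnd1 1.56 TPM. Cdc6, the loading ATPase, averaged 0.262 TPM and stayed under 1 TPM in all 12 libraries, so it was the only member below the filter of 1 TPM in at least 3 libraries and has no test. Ccnd1 passed the filter through 6 libraries, which were 3 Mock, 1 FD and 2 FDI libraries.

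**Figure D1:**
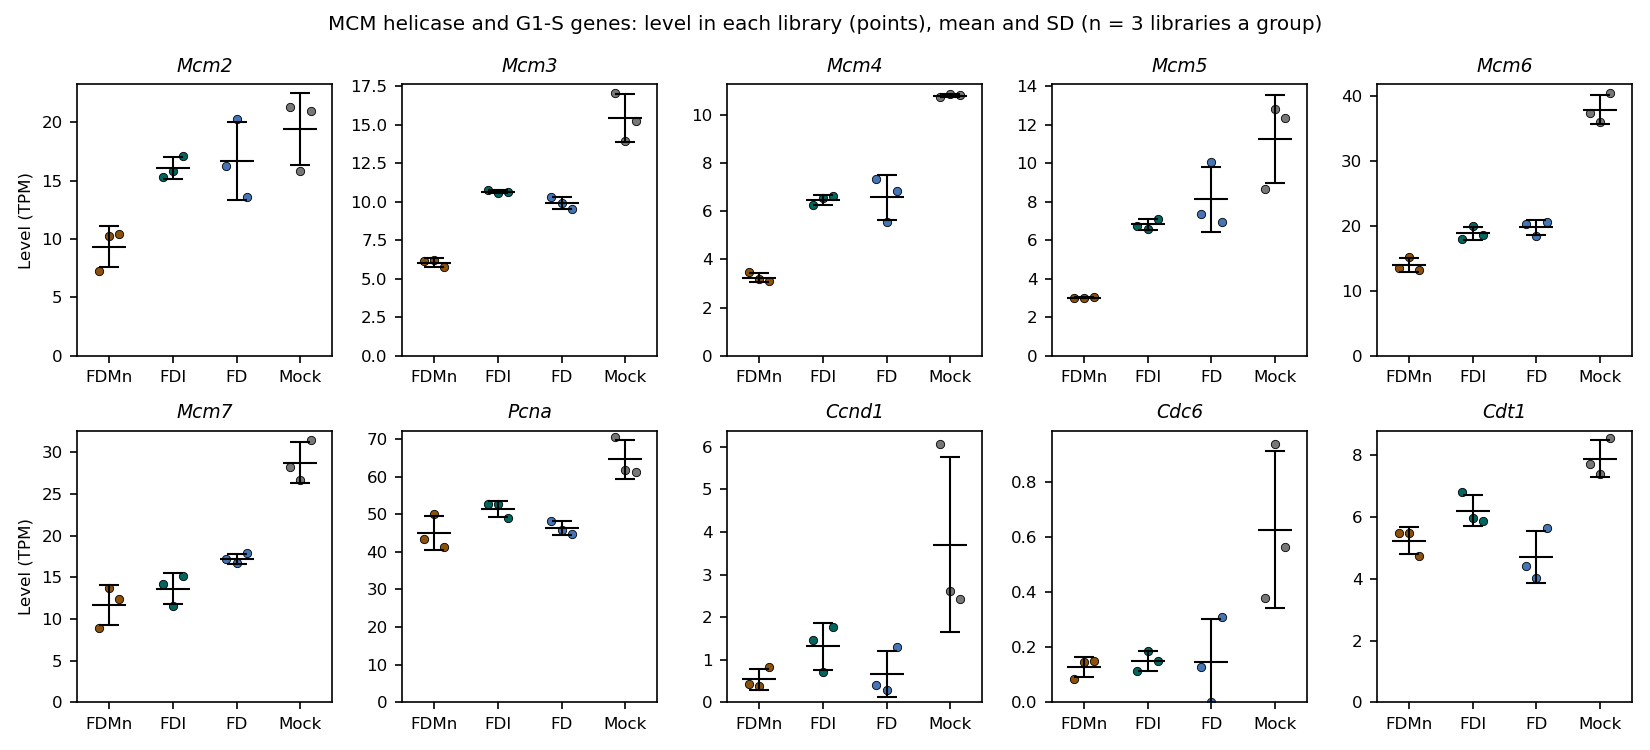
Level in TPM of the 10 MCM helicase and G1-S genes (linear axes from 0, 1 panel a gene), with a point for each library, a bar for the mean and whiskers for the SD of 3 libraries in FDMn, FDI, FD and Mock cells. The 6 Mcm genes have their lowest mean in FDMn and their highest in Mock, while Pcna, Cdt1 and Ccnd1 are low in all 3 treated groups; the Mcm5 points of FDMn lie between 3.00 and 3.07 TPM.

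The 6 helicase genes were lowest in cells given manganese. Summed over Mcm2 to Mcm7, the level was 42.5, 51.6 and 48.0 TPM in FDMn cells, 71.2, 71.1 and 75.2 TPM in FDI cells, 78.7, 80.9 and 75.3 TPM in FD cells and 123.3, 116.1 and 131.2 TPM in Mock cells. The ranges of the 4 groups did not overlap, although FDI and FD came within 1 TPM of each other at 75.2 and 75.3 TPM. The mean of the sum was 47.4 ± 4.56 TPM in FDMn cells and 78.3 ± 2.81 TPM in FD cells (SD, n = 3 each), 39.5% lower in FDMn. The same sum in FD cells was 36.6% below the 123.5 ± 7.55 TPM of Mock cells (SD, n = 3).

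Mcm5 and Mcm4 had the largest drops under manganese. Mcm5 stood at 3.00, 3.00 and 3.07 TPM in FDMn cells, 6.75, 6.60 and 7.13 TPM in FDI cells, 7.36, 10.1 and 6.94 TPM in FD cells and 8.66, 12.8 and 12.4 TPM in Mock cells. The FDMn values were all below those of every other library, while FD and Mock overlapped. Mcm4 was at 3.48, 3.17 and 3.10 TPM in FDMn cells, 6.25, 6.57 and 6.63 TPM in FDI cells, 7.35, 5.55 and 6.83 TPM in FD cells and 10.7, 10.9 and 10.8 TPM in Mock cells. Its levels formed 3 bands with no overlap, FDMn lowest, FDI with FD between, and Mock highest.

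Mcm3 had the same bands for FDMn and Mock, but between them its FDI libraries all lay above its FD libraries. It had 6.17, 6.24 and 5.75 TPM in FDMn cells, 10.8, 10.6 and 10.6 TPM in FDI cells, 10.3, 9.94 and 9.51 TPM in FD cells and 17.0, 14.0 and 15.2 TPM in Mock cells. Mcm6, the subunit with the highest level, had 13.6, 15.2 and 13.2 TPM in FDMn cells, 17.9, 20.0 and 18.6 TPM in FDI cells, 20.3, 18.4 and 20.6 TPM in FD cells and 37.3, 36.0 and 40.4 TPM in Mock cells. Its widest step was the one between FD and Mock.

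Mcm7 and Mcm2 departed from these bands in different places. Mcm7 was at 8.98, 13.7 and 12.4 TPM in FDMn cells, 14.2, 11.5 and 15.1 TPM in FDI cells, 17.2, 16.7 and 17.9 TPM in FD cells and 28.2, 26.6 and 31.4 TPM in Mock cells, so that FDMn and FDI overlapped. Mcm2 was at 7.30, 10.2 and 10.5 TPM in FDMn cells, 15.3, 15.8 and 17.1 TPM in FDI cells, 16.2, 20.3 and 13.6 TPM in FD cells and 21.3, 15.9 and 21.0 TPM in Mock cells. Only FDMn stood apart for Mcm2, and the other 3 groups overlapped. Mir25, Mir93 and Mir106b lie within Mcm7 on the same strand, and its exons share 321 bases with Ap4m1 and 64 with Cops6 on the opposite strand; neither Ap4m1 nor Cops6 passed the test in any comparison.

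The makeup of the helicase transcripts also differed between groups. Mcm5 was 6.42 ± 0.615% of the Mcm2 to Mcm7 sum in FDMn cells, 9.42 ± 0.109% in FDI cells, 10.3 ± 1.83% in FD cells and 9.16 ± 2.02% in Mock cells (SD, n = 3 each). Mcm6 was 29.7 ± 2.23% in FDMn cells, 26.0 ± 1.83% in FDI cells, 25.3 ± 2.35% in FD cells and 30.7 ± 0.360% in Mock cells. Mcm2 was 19.6 ± 2.33% in FDMn cells, 22.2 ± 0.608% in FDI cells, 21.2 ± 3.56% in FD cells and 15.7 ± 1.85% in Mock cells. The Mcm6 level was 4.53, 5.07 and 4.30 times the Mcm5 level in FDMn cells, 2.65, 3.03 and 2.61 times in FDI cells, 2.76, 1.83 and 2.97 times in FD cells and 4.31, 2.81 and 3.27 times in Mock cells, so that FDMn overlapped Mock and not FDI or FD. These shares are descriptions with no test.

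**Figure D2:**
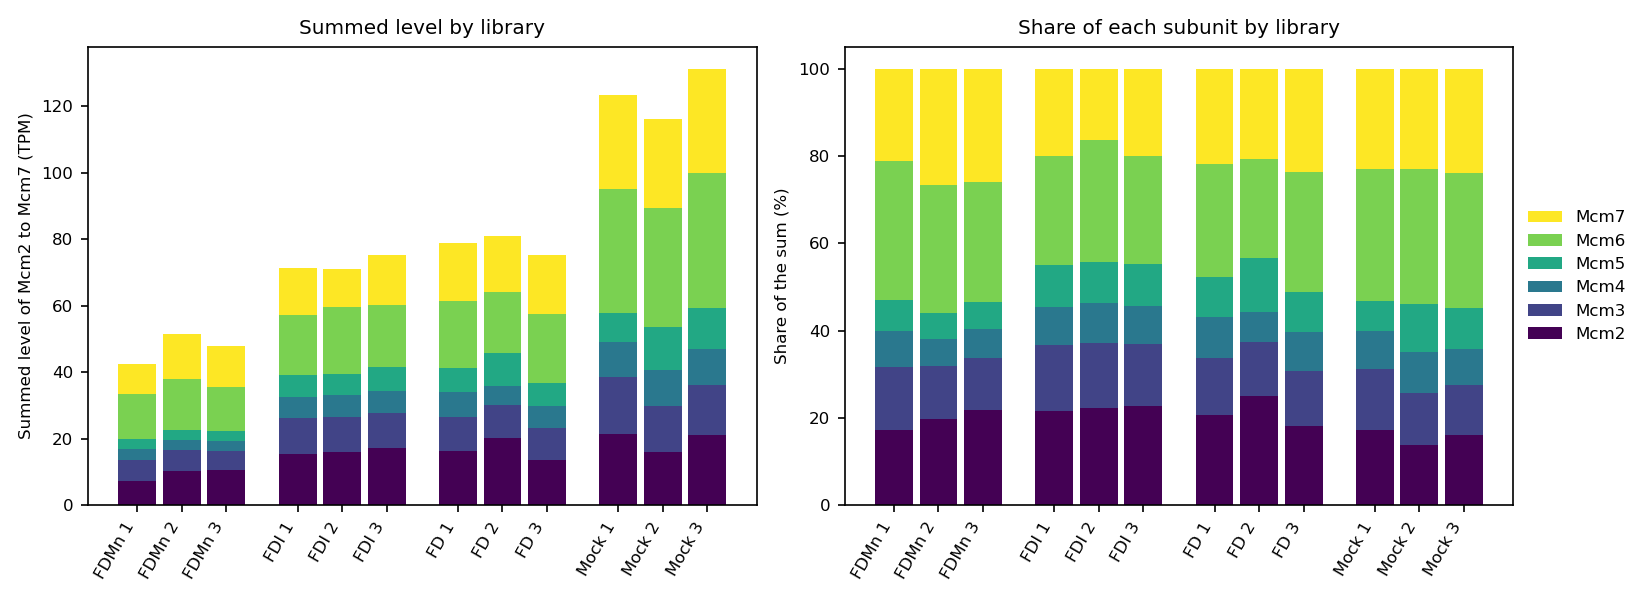
Left, summed TPM of Mcm2 to Mcm7 in each of the 12 libraries, stacked by subunit; right, each subunit's share of that sum in percent. The sum lies between 42.5 and 51.6 TPM in FDMn libraries and between 116.1 and 131.2 TPM in Mock libraries, and Mcm5 takes its smallest mean share, 6.42%, in FDMn libraries.

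Pcna, the clamp, was at 43.5, 50.01 and 41.4 TPM in FDMn cells, 52.6, 52.7 and 48.9 TPM in FDI cells, 48.3, 45.7 and 44.7 TPM in FD cells and 70.6, 61.7 and 61.3 TPM in Mock cells. The 3 treated groups lay below Mock without overlap, and FDMn overlapped both FDI and FD. The copy Pcna-ps2 reached at most 0.240 TPM and Pcna-ps1 was listed at 0. Cdt1, which brings the Mcm ring to the origin, was at 5.48, 5.47 and 4.74 TPM in FDMn cells, 6.79, 5.95 and 5.86 TPM in FDI cells, 4.42, 4.02 and 5.63 TPM in FD cells and 7.70, 7.39 and 8.53 TPM in Mock cells. For Cdt1, FDI lay above FD in every library, the reverse of the order of Mcm7.

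Cdc6 was at 0.085, 0.146 and 0.150 TPM in FDMn cells, 0.115, 0.185 and 0.152 TPM in FDI cells, 0.129, 0 and 0.310 TPM in FD cells and 0.379, 0.936 and 0.563 TPM in Mock cells. All treated libraries lay below all Mock libraries, at levels where the reads per value are unknown. In the fit without the filter on low values, which tested 21494 genes, Cdc6 was lower by -0.50 ± 0.12 (log2 change ± SE) in FD than in Mock cells (limma, adjusted p = 0.0158). Ccnd1 was at 0.432, 0.376 and 0.830 TPM in FDMn cells, 1.47, 0.711 and 1.77 TPM in FDI cells, 0.408, 0.296 and 1.30 TPM in FD cells and 6.07, 2.61 and 2.43 TPM in Mock cells. Mock replicate 1 was the highest by a wide margin, and the 3 treated groups overlapped among themselves. Ccnd1 exons share 1100 bases with LTO1 on the opposite strand, and LTO1 passed no comparison, with group means between 21.7 and 26.3 TPM.

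The first comparison asks what forskolin and dexamethasone changed in hepatocytes. Of the 9 members tested, 8 were lower in FD than in Mock cells and none was higher, where 29.9% of all tested genes were lower, 11.2% were higher and 41.1% passed in either direction. The fall was steepest for Ccnd1, at 82.0% below Mock by group means, followed by Mcm6 at 47.9%, Cdt1 at 40.4%, Mcm7 at 40.0%, Mcm4 at 39.1% and Mcm3 at 35.7%. Pcna fell by 28.4% and Mcm5 by 28.0%. Mcm2 was at 16.7 ± 3.37 TPM in FD cells and 19.4 ± 3.07 TPM in Mock cells (SD, n = 3 each) and did not pass. Of all 10 members, 8 had no overlap between FD and Mock libraries with FD lower, where 34.7% of all tested genes did. The member median was -0.65 against -0.15 for all tested genes, both as log2(TPM + 1) changes.

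By limma on log2(TPM + 1), Mcm6 changed by -0.91 ± 0.08 (log2 change ± SE, adjusted p = 3.15e-06), which is -0.76 relative to the median of all genes. Mcm3 changed by -0.59 ± 0.09 (adjusted p = 0.000205) and Mcm4 by -0.65 ± 0.10 (adjusted p = 0.00036). Mcm7 changed by -0.70 ± 0.14 (adjusted p = 0.00152), and all 4 of these calls held in each of the 13 alternatives run. Pcna changed by -0.47 ± 0.08 (limma, adjusted p = 0.000605), and by -0.31 after median-of-ratios scaling. Ccnd1 changed by -1.46 ± 0.31 (adjusted p = 0.00245) and Cdt1 by -0.65 ± 0.12 (adjusted p = 0.0011), and both calls ended without FD replicates 1 and 2, with changes of -0.95 and -0.42 and adjusted p of 0.11 and 0.0584. With a pseudocount of 0.1 the Ccnd1 change was -2.41. Mcm5 changed by -0.43 ± 0.15 (limma, adjusted p = 0.0402), a call that ended in 8 of 13 alternatives, among them both other scalings (-0.28, adjusted p = 0.188 and 0.199) and the fits without Mock replicate 2, Mock replicate 3, FD replicate 1 or FD replicate 3 (adjusted p between 0.115 and 0.141). The Mcm2 change was -0.21, with a 95% interval of -0.57 to 0.14 (limma, adjusted p = 0.325).

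**Figure D3:**
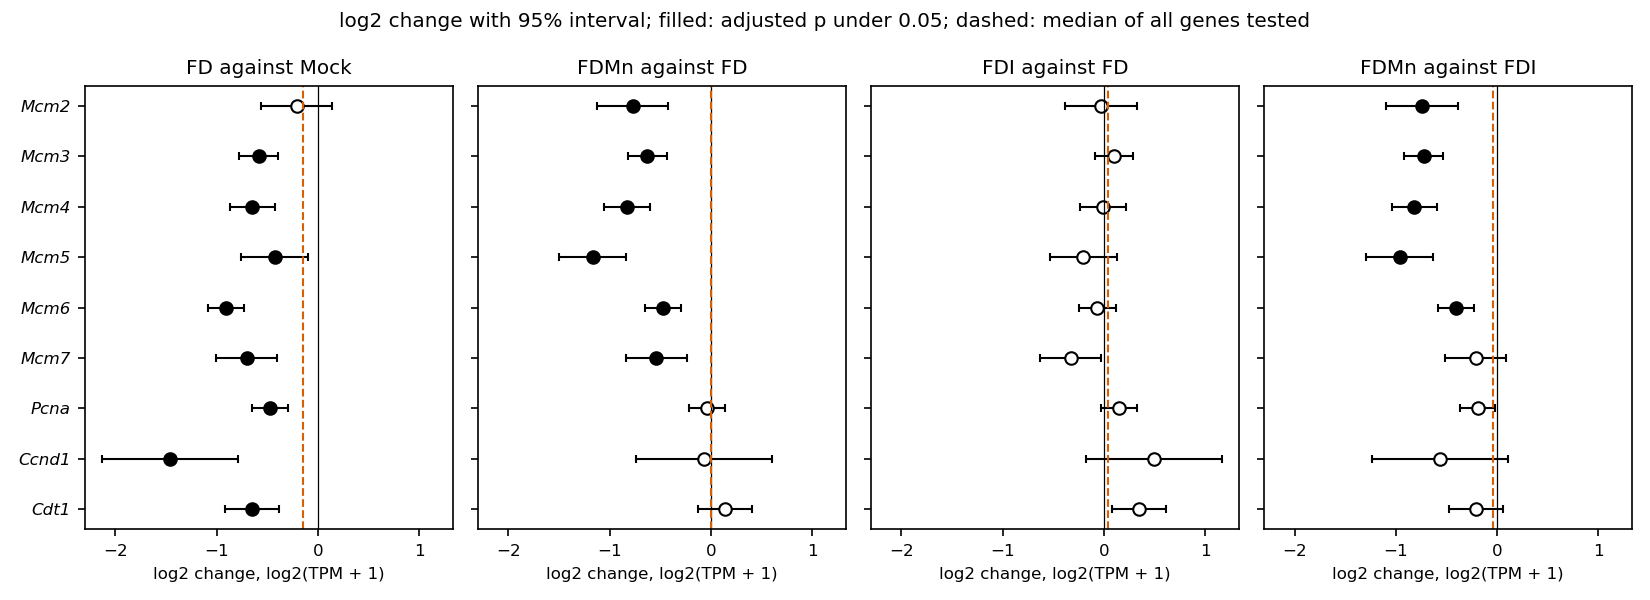
Change of the 9 tested members on the log2(TPM + 1) scale with its 95% interval in 4 comparisons; filled points have a limma adjusted p under 0.05, and the dashed line is the median change of all 11544 tested genes. All 6 Mcm genes are filled and below 0 in FDMn against FD, where Pcna, Ccnd1 and Cdt1 are open, and no point is filled in FDI against FD.

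The second comparison asks what manganese changed in cells that also received forskolin and dexamethasone. All 6 helicase genes were lower in FDMn than in FD cells, and none of the other members passed in either direction. The background was 7.90% of all tested genes lower and 7.22% higher. By group means Mcm5 was 62.8% lower, Mcm4 50.6%, Mcm2 44.1%, Mcm3 38.9%, Mcm7 32.2% and Mcm6 29.2%. For each of these 6 genes every FDMn library lay below every FD library, a pattern that 16.4% of all tested genes showed, and no member lay above without overlap, as 16.6% of tested genes did. The clamp and the licensing factor did not pass, with Pcna at 44.9 ± 4.52 TPM in FDMn cells and 46.2 ± 1.85 TPM in FD cells, and Cdt1 at 5.23 ± 0.424 TPM in FDMn cells and 4.69 ± 0.840 TPM in FD cells (SD, n = 3 each).

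Mcm5 changed by -1.17 ± 0.15 (limma log2 change ± SE, adjusted p = 0.000395), Mcm4 by -0.83 ± 0.10 (adjusted p = 0.00031), Mcm3 by -0.63 ± 0.09 (adjusted p = 0.000567) and Mcm6 by -0.47 ± 0.08 (adjusted p = 0.00247). These 4 calls held in each of 13 alternatives. Mcm2 changed by -0.77 ± 0.16 (limma, adjusted p = 0.00769), and the call ended without FD replicates 1 and 2, at -0.51 (adjusted p = 0.193). Mcm7 changed by -0.54 ± 0.14 (limma, adjusted p = 0.0207), and the call ended in 5 alternatives, including the fits without FD replicate 1 (adjusted p = 0.0542) and without FDMn replicate 1 (adjusted p = 0.0703). The change of Pcna was -0.04 with a 95% interval of -0.22 to 0.13, that of Cdt1 0.14 with an interval of -0.13 to 0.40, and that of Ccnd1 -0.07 with an interval of -0.75 to 0.60. The interval of Ccnd1 includes the estimates of Mcm3, Mcm6 and Mcm7. From its mean of 0.667 TPM in FD cells, Ccnd1 could not fall as far as Mcm2, Mcm4 and Mcm5 on the log2(TPM + 1) scale. Its change therefore cannot be set against theirs. The intervals of Pcna and Cdt1 include the estimate of no Mcm gene.

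The third comparison asks what insulin changed in cells given forskolin and dexamethasone. None of the 9 tested members passed in FDI against FD by limma, where 14.5% of all tested genes passed, 10.2% higher and 4.35% lower. At an unadjusted p under 0.05 there were 2, Cdt1 and Mcm7. Cdt1 was at 6.20 ± 0.516 TPM in FDI cells and 4.69 ± 0.840 TPM in FD cells (SD, n = 3 each), a change of 0.35 ± 0.12 (log2 change ± SE; limma, adjusted p = 0.078), and it passed without FD replicate 3, at 0.46 (adjusted p = 0.0211). Over the 13 alternatives the Cdt1 change ranged between 0.12 and 0.46, the lowest being without FD replicates 1 and 2 (adjusted p = 0.758). Mcm7 was at 13.6 ± 1.86 TPM in FDI cells and 17.2 ± 0.596 TPM in FD cells (SD, n = 3 each), a change of -0.33 ± 0.14 (limma, adjusted p = 0.137). The 95% intervals were -0.24 to 0.22 for Mcm4, -0.24 to 0.11 for Mcm6 and -0.09 to 0.29 for Mcm3, and wider for Mcm2 (-0.39 to 0.32), Mcm5 (-0.54 to 0.12) and Ccnd1 (-0.18 to 1.17). Without overlap between libraries, Mcm3, Pcna and Cdt1 were higher in FDI and Mcm7 was lower, against a background of 19.6% of tested genes higher and 11.2% lower.

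The direct test of manganese against insulin gave 5 members lower in FDMn than in FDI cells, Mcm2, Mcm3, Mcm4, Mcm5 and Mcm6, where 11.9% of all tested genes were lower, 5.68% were higher and 17.6% passed in either direction. Mcm5 was at 3.02 ± 0.0380 TPM in FDMn cells and 6.83 ± 0.269 TPM in FDI cells (SD, n = 3 each), and changed by -0.96 ± 0.15 (limma log2 change ± SE, adjusted p = 0.00111). Mcm4 changed by -0.82 ± 0.10 (limma, adjusted p = 0.000253), Mcm2 by -0.74 ± 0.16 (adjusted p = 0.00844), Mcm3 by -0.73 ± 0.09 (adjusted p = 0.000173) and Mcm6 by -0.40 ± 0.08 (adjusted p = 0.00538). Each of these 5 calls held in all 12 alternatives that apply. Mcm7 (-0.21, adjusted p = 0.328), Pcna (-0.19, adjusted p = 0.126), Cdt1 (-0.21, adjusted p = 0.274) and Ccnd1 (-0.57, adjusted p = 0.24) did not pass limma's test. The FDMn libraries lay below all FDI libraries for 6 members, these 5 and Cdt1, as did 25.6% of all tested genes, and no member lay above, as 15.0% of tested genes did.

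Both groups can also be set against Mock, with which the FD comparison shares its 3 Mock libraries. All 9 tested members were lower in FDMn than in Mock cells, where 42.7% of all tested genes passed and 30.6% were lower. All 10 members lay below Mock without overlap, as did 38.8% of tested genes. By group means Mcm5 was down by 73.2%, Mcm4 by 69.9%, Mcm6 by 63.1%, Mcm3 by 60.7%, Mcm7 by 59.3% and Mcm2 by 51.9%. The change was -1.59 ± 0.15 for Mcm5 (limma, adjusted p = 4.81e-06), -1.47 ± 0.10 for Mcm4 (adjusted p = 3.45e-07) and -0.99 ± 0.16 for Mcm2 (adjusted p = 0.000424), which is -1.45, -1.33 and -0.84 relative to the median of all genes. In FDI cells 7 members were lower than in Mock, where 38.3% of all tested genes passed and 25.4% were lower, and 9 members lay below without overlap, as did 33.6% of tested genes. Mcm2 (-0.25, limma adjusted p = 0.259) and Cdt1 (-0.30, adjusted p = 0.0692) did not pass. Mcm7 fell by 52.7% and Mcm6 by 50.3% in FDI cells. Ccnd1 was 64.5% lower in FDI than in Mock cells (limma, adjusted p = 0.0267), a call that ended in 6 of 12 alternatives, among them those without Mock replicate 1 (-0.63 against -0.97, adjusted p = 0.109), FDI replicate 1 (adjusted p = 0.0504) and FDI replicate 2 (adjusted p = 0.105). Pcna was 20.3% lower (adjusted p = 0.00828), and that call ended after median-of-ratios scaling, at -0.21 against -0.32 (adjusted p = 0.062).

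Other genes of DNA replication were counted beside the helicase genes. Of 21 tested genes of origin licensing and firing, 4 were lower and none higher in FD than in Mock cells, a smaller share than the 29.9% of all tested genes that were lower, with a median change of -0.31 against -0.15 for all tested genes. Dbf4, the activator of the Cdc7 kinase that phosphorylates the Mcm ring, was at 9.64, 7.30 and 7.87 TPM in FD cells and 13.4, 13.1 and 14.0 TPM in Mock cells (-0.65 ± 0.11, limma adjusted p = 0.000406). Gins1, a subunit that joins the Mcm ring in the active helicase, was at 3.51, 1.77 and 3.66 TPM in FD cells and 6.70, 6.57 and 6.43 TPM in Mock cells (-0.97 ± 0.19, limma adjusted p = 0.00138). In FDMn against FD, where 7.90% of all tested genes were lower and 7.22% higher, 2 genes of this list were lower and 1 higher, with a list median of -0.14. Each of these 3 calls, Gins4, Topbp1 and Orc5, ended in 4 to 8 of 13 alternatives. In FDI against FD, where 10.2% of all tested genes were higher and 4.35% lower, 2 genes of this list were higher and none lower. One of them was Mtbp, a factor of origin firing, at 12.5, 15.8 and 13.5 TPM in FDI cells and 5.94, 8.98 and 7.20 TPM in FD cells (0.84 ± 0.14, limma adjusted p = 0.00147). The other was Orc6, an origin recognition subunit, and its call ended in 11 of 13 alternatives, among them both other scalings and the fits without FD replicate 1, FD replicate 2 or any 1 FDI library (adjusted p between 0.0572 and 0.165).

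Among 26 tested genes of the clamp loader, the polymerases and the fork, 11 were lower and 1 higher in FD than in Mock cells, where 29.9% and 11.2% of all tested genes were. After median-of-ratios scaling 7 were lower and 2 higher, beside 1982 lower and 2054 higher of all 11544 tested genes. Fewer were lower without FD replicates 1 and 2. In FDMn against FD, 5 were lower and 1 higher, where 7.90% and 7.22% of all tested genes were, and in a fit of these groups alone 2 were lower. Lig1, the ligase that seals Okazaki fragments, had the closest course to the helicase genes of this list. It was at 5.36, 4.89 and 6.04 TPM in FDMn cells, 7.20, 7.12 and 8.77 TPM in FDI cells, 9.39, 10.2 and 9.15 TPM in FD cells and 14.6, 12.2 and 14.7 TPM in Mock cells. Its change in FDMn against FD was -0.72 ± 0.11 (limma, adjusted p = 0.00119), and its r with the mean of Mcm2 to Mcm7 over the 12 libraries was 0.96. Rfc3, a clamp loader subunit, changed by -0.67 ± 0.13 in FD against Mock (limma, adjusted p = 0.00171) and had an r of 0.94.

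A few replication genes took another course. Chaf1b, a subunit of the chromatin assembly factor that deposits histones behind the fork, was at 5.57, 5.95 and 5.71 TPM in FDMn cells, 15.2, 15.3 and 16.2 TPM in FDI cells, 8.79, 10.3 and 9.92 TPM in FD cells and 5.87, 4.96 and 5.95 TPM in Mock cells. It was higher in FD than in Mock (0.69 ± 0.09, limma adjusted p = 9.59e-05), higher in FDI than in FD (0.64 ± 0.09, adjusted p = 0.000846) and lower in FDMn than in FD (-0.66 ± 0.09, adjusted p = 0.000673). Rrm2, the regulated subunit of the reductase that makes deoxynucleotides, ran against the helicase genes. It was at 17.2, 22.1 and 15.5 TPM in FDMn cells, 9.63, 11.5 and 14.0 TPM in FDI cells, 17.4, 9.16 and 10.1 TPM in FD cells and 0.698, 2.02 and 1.71 TPM in Mock cells. FD was 8.30-fold above Mock by group means (2.41 ± 0.26, limma adjusted p = 1.24e-05), and r with the Mcm mean was -0.86. Of 9 tested genes of deoxynucleotide supply, FD cells had 2 above and 3 below their Mock level by the test, where 11.2% of all tested genes were higher and 29.9% lower. The 3 lower calls all ended after median-of-ratios scaling. In FDMn against FD, where 15.1% of all tested genes passed, Dut, which removes dUTP, was the 1 gene of that list that passed. It was at 12.5, 12.4 and 12.6 TPM in FDMn cells and 8.06, 9.19 and 8.49 TPM in FD cells (0.49 ± 0.10, limma adjusted p = 0.00538). The call ended without FD replicates 1 and 2, with a change there of 0.51.

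The partners and inhibitors of cyclin D1 were counted in the same way. Of 10 tested genes of the G1-S cyclins, their kinases and regulators, 5 were lower and 1 higher in FD than in Mock cells, where 41.1% of all tested genes passed, and 3 were lower and none higher without FD replicates 1 and 2. None passed in FDMn against FD by limma, where 15.1% of all tested genes did, and none had an unadjusted p under 0.05 other than Cdk4. Unlike the Mcm genes, Cdk4 was higher there, at 100.6 ± 8.39 TPM in FDMn cells and 87.0 ± 8.74 TPM in FD cells (SD, n = 3 each). Cdk6 was at 10.2, 15.7 and 11.99 TPM in FD cells and 24.9, 30.0 and 34.2 TPM in Mock cells (-1.18 ± 0.15, limma adjusted p = 7.23e-05). Ccnd2, the sister cyclin, was at 1.01, 1.10 and 0.547 TPM in FD cells and 4.46, 4.56 and 2.91 TPM in Mock cells (-1.39 ± 0.19, limma adjusted p = 0.000123). Cdk4 was at 118.8, 112.6 and 114.6 TPM in FDI cells, 78.2, 87.0 and 95.7 TPM in FD cells and 134.7, 133.4 and 136.2 TPM in Mock cells. It was lower in FD than in Mock (-0.63 ± 0.08, limma adjusted p = 3.92e-05) and higher in FDI than in FD (0.41 ± 0.08, adjusted p = 0.00402). The second call ended without FD replicates 1 and 2, with a change there of 0.27. All 4 tested CDK inhibitors passed in FD against Mock, 3 of them higher, where 41.1% of all tested genes passed. One of the 3, Cdkn2d, averaged 2.33 ± 1.14 TPM in FD and 0.509 ± 0.270 TPM in Mock cells (SD, n = 3 each). Its means were 0.742 TPM in FDMn and 0.745 TPM in FDI cells, so the filter on low values kept it mainly through FD, where it is high. Fewer were higher without FD replicates 1 and 2, and the Cdkn1b call ended there, at 0.30 against 0.50. In FDI against FD, Cdkn1a was higher and Cdkn1b and Cdkn2d were lower, where 14.5% of all tested genes passed. The calls of Cdkn1a and Cdkn2d each ended in 9 of 13 alternatives. That of Cdkn1b ended only without FD replicates 1 and 2, at -0.30 against -0.51. Against Mock, Cdkn1a, which encodes p21 and binds Pcna, was 2.34-fold higher in FD cells (1.22 ± 0.06, limma adjusted p = 2.7e-08). Cdkn2b, which encodes an inhibitor of Cdk4 and Cdk6, was lower in FD than in Mock cells (-1.66 ± 0.20, limma adjusted p = 4.22e-05).

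Of 11 tested E2F and pocket protein genes, 4 were lower and 1 higher in FD than in Mock cells, where 29.9% and 11.2% of all tested genes were. After median-of-ratios scaling 3 were lower and 2 higher, and fewer passed without FD replicates 1 and 2. In FDMn against FD, 2 were lower, where 7.90% of all tested genes were. In FDI against FD, 2 were higher and 1 lower, where 10.2% and 4.35% of all tested genes were. E2f8, an atypical E2F that represses transcription, was at 1.23, 1.74 and 1.09 TPM in FDMn cells, 2.77, 3.07 and 4.84 TPM in FDI cells, 3.30, 3.32 and 2.75 TPM in FD cells and 1.15, 1.65 and 1.16 TPM in Mock cells. It was higher in FD than in Mock (0.83 ± 0.18, limma adjusted p = 0.00327) and lower in FDMn than in FD (-0.82 ± 0.18, adjusted p = 0.0114). Both calls ended without FD replicates 1 and 2, with changes there of 0.70 and -0.68. E2f4, an E2F of quiescent cells that acts with the pocket proteins, was lower in FD than in Mock cells, at 39.4, 38.4 and 45.5 TPM in FD cells and 69.4, 84.1 and 70.9 TPM in Mock cells (-0.85 ± 0.10, limma adjusted p = 2.7e-05). Rbl2, the pocket protein p130, was lower in FDMn than in FD cells, at 6.03, 6.96 and 7.23 TPM in FDMn cells and 11.1, 10.7 and 10.3 TPM in FD cells (-0.60 ± 0.12, limma adjusted p = 0.00483). That call ended without FD replicates 1 and 2, at a change of -0.54. Rbl2 was also lower in FDI than in FD cells, at 5.71 ± 0.752 TPM in FDI cells (SD, n = 3). Its change there was -0.81 ± 0.12 (limma, adjusted p = 0.000733), and the call held in each of 13 alternatives. Of 18 genes of G2 and mitosis only 5 passed the filter on low values. Mki67, the usual marker of cycling cells, reached at most 0.142 TPM in any library, and Top2a 0.784 TPM; both were picked after their values were seen. Of the 5, Birc5 and Bub1b were lower in FD than in Mock by limma, where 29.9% of all tested genes were lower. Birc5 averaged 0.139 TPM in FD and 1.45 TPM in Mock cells, and Bub1b 0.236 TPM in FD and 1.41 TPM in Mock cells. Both averaged under 1 TPM in every group but Mock, so the filter on low values may have kept them largely through Mock, where they are high. The Bub1b call (limma, adjusted p = 0.0227) ended in 5 of 13 alternatives, among them those without Mock replicate 1 (adjusted p = 0.0737), Mock replicate 2 (adjusted p = 0.0853) or FD replicate 2 (adjusted p = 0.0718). None of the 5 passed in FDMn against FD, FDI against FD or FDMn against FDI, where 15.1%, 14.5% and 17.6% of all tested genes passed. At an unadjusted p under 0.05 there was Birc5 in the first, Ccnf in the second and none in the third.

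**Figure D4:**
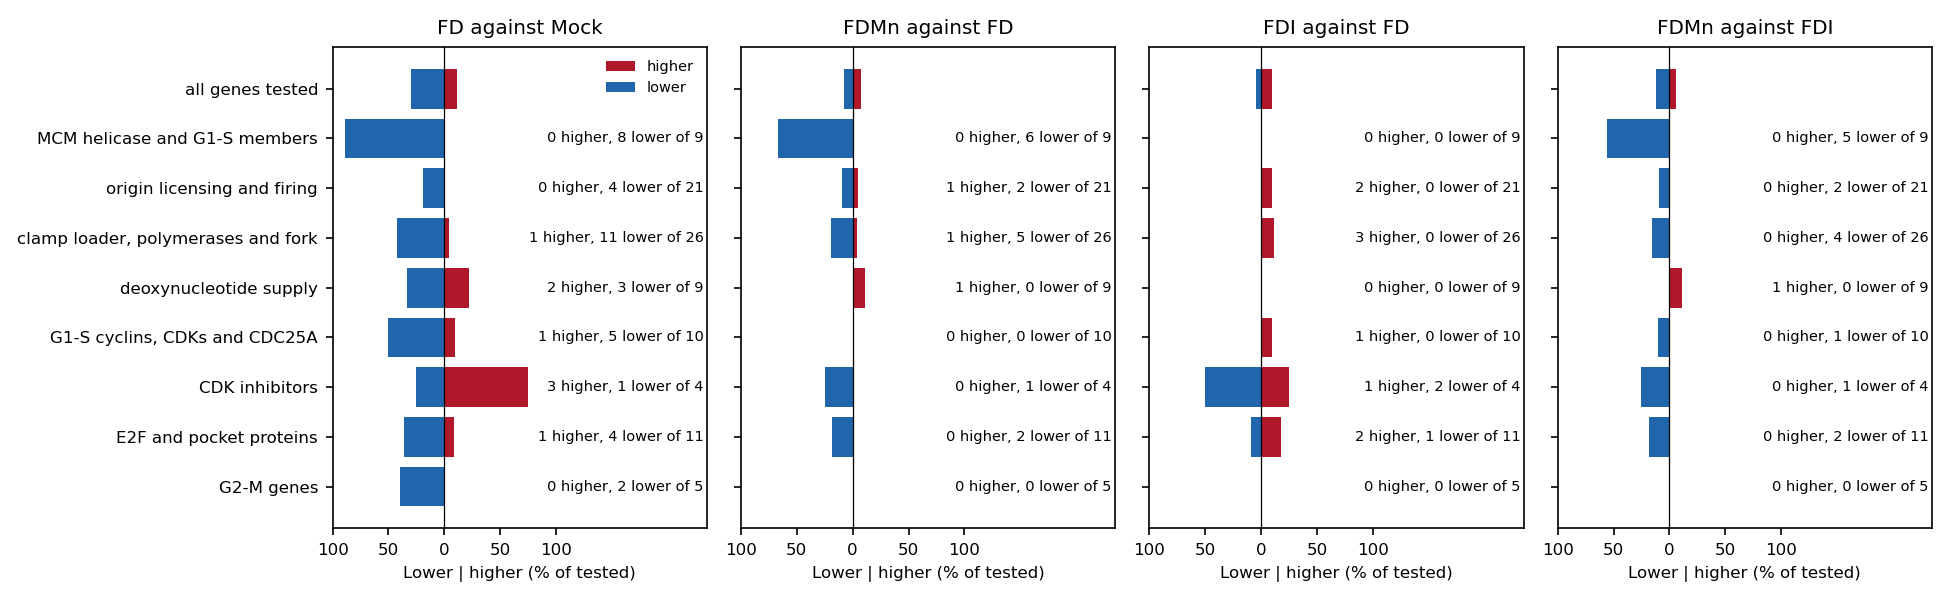
Share in percent of the tested genes of each list that were lower (bars to the left of 0) or higher (bars to the right) at a limma adjusted p under 0.05 in 4 comparisons, with the counts beside the bars and all 11544 tested genes on top. Members have 8 of 9 lower in FD against Mock and 6 of 9 lower in FDMn against FD, and the other replication lists have 2 of 21 and 5 of 26 lower in FDMn against FD.

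**Figure D5:**
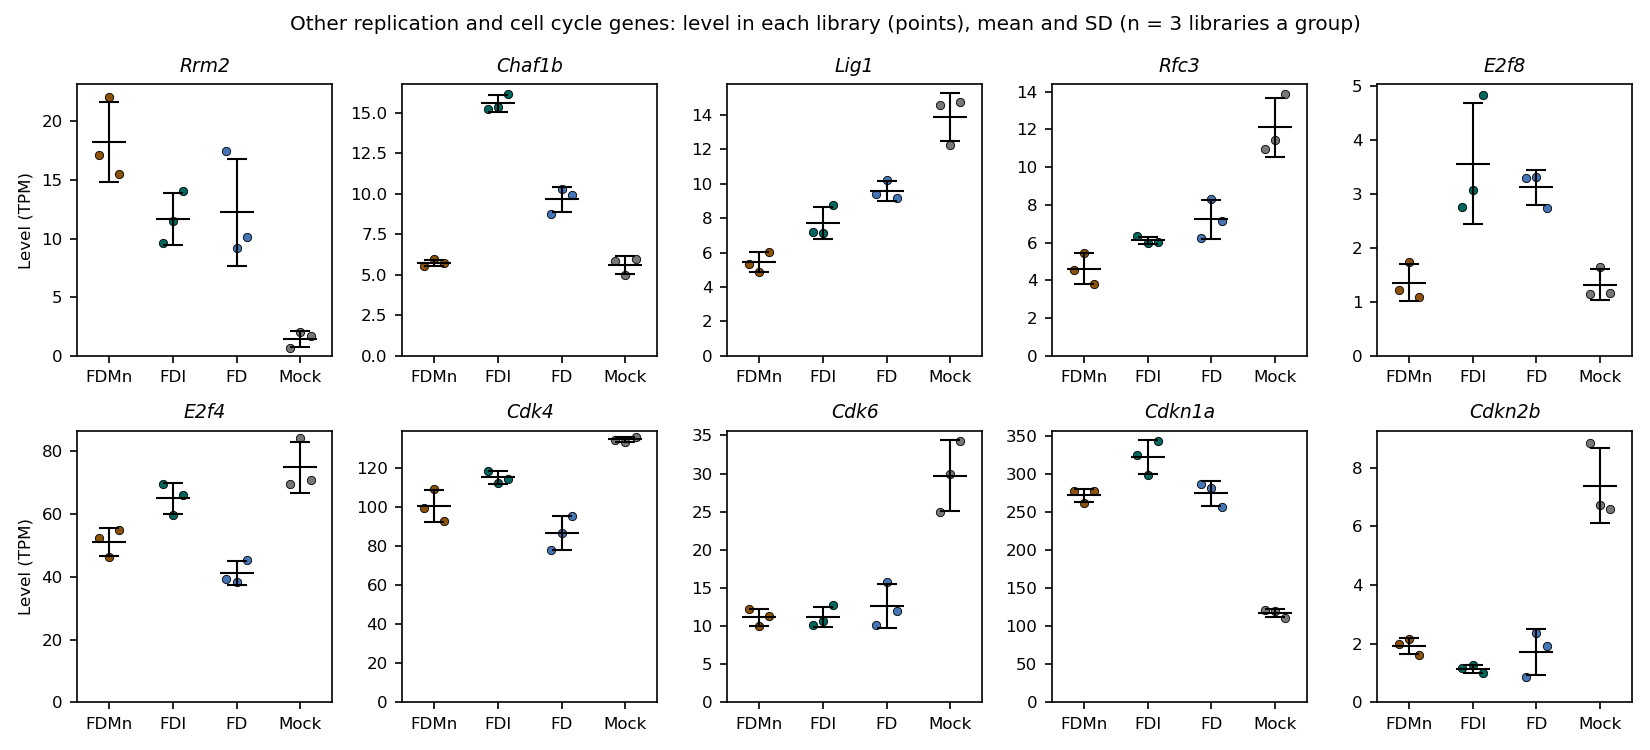
Level in TPM (linear axes from 0) of 10 other replication and cell cycle genes, with a point for each library, a bar for the mean and whiskers for the SD of 3 libraries in FDMn, FDI, FD and Mock cells. Lig1 and Rfc3 are lowest in FDMn and highest in Mock, Rrm2 is high in all 3 treated groups, and Chaf1b is highest in FDI at 15.2 to 16.2 TPM.

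Markers of other liver cells were set beside the members. All 3 cholangiocyte markers that were tested, Cldn4 and Sox9 among them, were lower in FD than in Mock cells by limma. The list summed to 80.3 to 89.8 TPM in FDMn cells, 138.3 to 169.5 TPM in FDI cells, 85.1 to 93.6 TPM in FD cells and 221.4 to 265.9 TPM in Mock cells. The defining markers Krt19, Krt7 and Epcam reached at most 1.24 TPM in any library, and Cftr was listed at 0 in 11 of the 12 libraries. The sums thus moved with the members between FD and Mock, overlapped between FDMn and FD where the Mcm genes did not, and their part in the result was not tested. Kupffer cell markers summed to 3.94 to 8.23 TPM, endothelial markers to 18.1 to 30.1 TPM, stellate cell markers to 12.1 to 27.3 TPM and lymphocyte markers to at most 0.678 TPM in any library, with the highest Kupffer and stellate sums in FDMn libraries.

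Among the members themselves, the levels went together most closely for Mcm3 with Mcm4, at a Pearson r of 0.98 over the 12 libraries, and least for Mcm2 with Cdt1, at 0.33. Outside the lists, the tested genes most like the mean log2(TPM + 1) of Mcm2 to Mcm7 included Slc25a23, Maoa, Clcn4, Mfsd6, Calm2, Cd276 and Ubtd1, with r between 0.97 and 0.98. Slc25a23, a mitochondrial carrier, averaged 29.8 TPM in FDMn, 47.8 TPM in FDI, 53.1 TPM in FD and 79.8 TPM in Mock cells. Cd276 had the widest range of these 7, at 4.65 TPM in FDMn, 9.33 TPM in FDI, 12.3 TPM in FD and 27.6 TPM in Mock cells. The genes most like Ccnd1 were Ahsa1, Cobl, Yaf2 and Wdr46, with r between 0.92 and 0.95. These r values describe the same 12 libraries in 4 groups and rest largely on the steps between groups.

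The members lie on 8 chromosomes, and all are annotated as protein-coding in GENCODE M21 on GRCm38. Mcm5 is at chr8:75109569-75128439 and Cdt1 at chr8:122568015-122573554, both on the plus strand, and Cdc6 is at chr11:98907801-98923940 on the plus strand. On the minus strand, Mcm3 is at chr1:20802968-20820312 and Mcm6 at chr1:128331590-128359664, Pcna at chr2:132249162-132253314 and Mcm7 at chr5:138164583-138172422. Mcm2 is at chr6:88883474-88898780, Ccnd1 at chr7:144929931-144939925 and Mcm4 at chr16:15623897-15637400, also on the minus strand.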

How the data were processed

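Poly-A RNA-seq of primary mouse hepatocytes was analysed in 4 groups of 3 libraries, grouped by their labels. The authors deposited a table of TPM per gene; kallisto 0.44.0, GRCm38.p6 and DESeq2 are named, without a role, per the submitters' processing notes. For strand use, annotation and the summing of transcripts, the status is: not given in the sources used here. Since TPM keep no counts, depth is unknown and no counting interval is given. Genes at 1 TPM or more in at least 3 of 12 libraries (11544) were tested with limma 3.58.1 in R 4.3.3 on log2(TPM + 1), with 1 term per group over all 12 libraries and a mean-variance trend. P-values are two-sided, adjusted by Benjamini-Hochberg over all tested genes, with a threshold of 0.05; fold changes on this scale understate the change of low genes. The members and gene lists were chosen with earlier results of these data known. Every member is named; of each list, at most 3 genes that passed a comparison are described, and the genes most like the mean Mcm level or Ccnd1 were taken by Pearson r among genes of at least 5 mean TPM (8 and 4 genes); some items are not reported here. Alternatives were a pseudocount of 0.1, no filter, median-of-ratios scaling, quantile normalization, a fit of only the groups compared, a replicate block, leaving out each library and, added after seeing the data, leaving out FD replicates 1 and 2. The test was checked on simulated data. Promoter windows came from RefSeq (GRCm38.p6).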

Additional observations from a re-analysis of the deposited data

How the results depend on the processing

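No value changed direction past its threshold. Of 675 values of the 54 member tests under the alternatives, 651 kept their side of the threshold, 23 no longer passed and 1 newly passed. The 651 include changes that took the other sign without passing in either fit. An example is Mcm2 in FDI against FD, at -0.03 in the main fit and up to 0.23 in an alternative. Members called in FDI against FD numbered 0 to 1 when a library was left out. Genes called in FDMn against FD numbered 1018 to 2025 with a library left out and 631 without FD replicates 1 and 2, against 1746. In FDI against FD they numbered 1092 to 2121 with a library left out, 985 in a fit of these groups alone and 622 without FD replicates 1 and 2, against 1674. In FDMn against FDI they numbered 1351 to 1456 with a library left out, against 2031. Fits without FD replicates 1 and 2 leave FD with 1 library, which is assumed to vary like the other groups. With the replicate number as a block, 4660, 1583, 1491, 1829, 4819 and 4259 genes were called in FD against Mock, FDMn against FD, FDI against FD, FDMn against FDI, FDMn against Mock and FDI against Mock, against 4743, 1746, 1674, 2031, 4925 and 4416, and no member call changed. Same-numbered libraries did not deviate together (r of -0.0976 to 0.0684 over 18 pairs), so the numbers were not taken to pair samples. The mean Mcm2 to Mcm7 sum in Mock was 113.8 after median-of-ratios scaling and 115.7 after quantile normalization, against 123.5 TPM. With depth unknown, the precision of low values such as those of Cdc6 and Ccnd1 cannot be given.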
